A study of Rattus norvegicus with 35 samples.

Results

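The genes described here are 10 genes of the oxidant defence of the lung: the transcription factor NRF2 (gene Nfe2l2), the cystine transporter Slc7a11, and Nqo1, Hmox1, Gclc, Gclm, Txnrd1, Srxn1, Sod2 and Sod3. They were taken as a named list, and every probe that carries one of these gene names on the array was read. All 10 had a probe, and 9 of them were among the 24473 genes bright enough to be tested, of 34766 gene names on the array. Gclm was not, and has no test.

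Expression was measured in the accessory lobe of the lung of 35 female Sprague Dawley rats, with 1 single-colour array per rat. The rats were heterozygous for p53 (p53het, labelled GMO) or wild type (WT), and were 12 weeks old when dosing began. All received 4 weekly instillations into the trachea, and lungs were taken 3 days after exposure. The groups were p53het Mitsui-7, p53het NM-403, p53het control, WT Mitsui-7, WT NM-403 and WT control, of 6 rats each except p53het NM-403, which had 5. Both agents, Mitsui-7 and NM-403, are carbon nanotubes of several concentric walls, given at 0.25 mg per rat, and the controls received the Pluronic vehicle. The labels do not say whether 0.25 mg was each instillation or the total, nor which change the p53 allele carries. Replicates are separate animals.

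NRF2 is the main transcription factor of the response to oxidants and electrophiles. In resting cells KEAP1, an adaptor of a ubiquitin ligase, keeps it short-lived. When cysteines of KEAP1 are modified, NRF2 builds up, pairs with small MAF proteins and binds antioxidant response elements in its target genes. Slc7a11 encodes the light chain of system xc-, which brings in cystine in exchange for glutamate and so supplies cysteine for glutathione. It is a target of NRF2 and also of ATF4, the transcription factor of the amino acid shortage response. Gclc and Gclm encode the catalytic and modifier subunits of glutamate-cysteine ligase, which makes the glutathione precursor. Txnrd1 encodes the cytosolic thioredoxin reductase and Srxn1 sulfiredoxin, which repairs over-oxidised peroxiredoxins. Nqo1 reduces quinones and Hmox1 breaks down heme. Sod2 and Sod3 encode the mitochondrial and the extracellular superoxide dismutase, the last of which is abundant in lung.

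The array reads each gene with probes of 60 bases. The sequences shown are those on which the main result rests, with G and C in capitals and positions in the rn4 build of the file headers. Slc7a11 had 2 probes on the minus strand, the brighter at chr2:139241468-139241527 and the dimmer at chr2:139248397-139248456, with 6929 bases between their starts. The brighter probe holds 27 G or C and the dimmer 18. Of the brighter Slc7a11 probe and of the Gclm probe (chr2:218915215-218915274, plus strand) the first 30 bases are given. The Gclm probe holds 9 G or C in its 60 bases, the fewest of the 12 probes of these genes, and was well above background on 0 of 35 arrays.
Slc7a11, brighter probe, first 30 bases: aGGGtGaaGtaGGttCtGtaGttaatGaCt
Slc7a11, dimmer probe: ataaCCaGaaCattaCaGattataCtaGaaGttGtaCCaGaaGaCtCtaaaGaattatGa
Gclm, first 30 bases: atatatttCCtttatttttatGaGtaataG
Nfe2l2 (chr3:58367137-58367196, minus strand) and Hmox1 (chr19:13969336-13969395, plus strand) had 1 probe each, with 26 and 33 G or C, and were well above background on all 35 arrays.
Nfe2l2: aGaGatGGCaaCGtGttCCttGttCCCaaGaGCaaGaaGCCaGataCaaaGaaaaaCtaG
Hmox1: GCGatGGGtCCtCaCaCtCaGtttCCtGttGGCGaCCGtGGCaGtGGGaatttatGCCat

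RefSeq promoter windows of 300 bases (GRCr8, 250 before the start to 50 after it) were found for 8 of the 10 genes. Hmox1 and Sod3 are named only. The antioxidant response element core TGACNNNGC was searched on both strands and occurs in 12.1% of all 33469 windows. It was found in 4 of the 9 windows of these genes. The letters were GCTTAGTCA in Gclm, GCTTTGTCA in the second of the Txnrd1 windows, GCAGGGTCA in Sod2 and TGACGCCGC in Nfe2l2. The windows of Slc7a11, Srxn1, Nqo1 and Gclc held no match. The ATF4 composite element core TGATGNAA, present in 3.98% of all windows, was in none of the 9.

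Of the 58717 non-control spots, 66.1% to 86.4% per array were well above background (median 71.5%). The arrays lay on 5 slides scanned over 3 days, with each group on 4 or 5 slides. After the group means were removed, pairs of arrays from 1 slide had a mean correlation of 0.22 and pairs from different slides one of -0.08. Markers of lung cell types were present: 62 of 65 markers were well above background on all 35 arrays, the exceptions being Marco, Nppa and Mpo.

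Levels are log2 signals relative to the 75th percentile of the same array, so that 0 is the level of that percentile. Values after ± are limma's standard errors of log2 fold changes unless SD is written. Adjusted p-values are limma's, adjusted over all 24473 genes, and a gene was called below 0.05. Levels are compared between groups for 1 probe at a time, never between genes. In whole lobes, fewer cells of a type and less RNA per cell cannot be told apart.

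Slc7a11 rose in all 4 comparisons of nanotubes with vehicle, and most with Mitsui-7. With the brighter probe its level in p53het Mitsui-7 rats ran from -4.05 to -3.28 (median -3.53). In the 5 p53het NM-403 rats it was -5.80, -4.33, -4.59, -4.77 and -4.02. In p53het controls it ran from -8.04 to -6.11 (median -6.49). The p53het groups exposed to nanotubes lay wholly above the p53het controls, while the ranges of Mitsui-7 and NM-403 overlapped at one rat of each. In WT rats the range was -3.54 to -2.31 with Mitsui-7 (median -2.89), -5.83 to -4.53 with NM-403 (median -4.77) and -6.999 to -5.98 in controls (median -6.27). Here the 3 groups did not overlap at all. The probe was well above background on 34 of 35 arrays, the exception being the lowest p53het control.

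The fold over control was 8.85 in p53het Mitsui-7 rats (log2 3.15 ± 0.29, adjusted p = 3.97e-09) and 3.99 in p53het NM-403 rats (1.99 ± 0.31, adjusted p = 0.000258). It was 11.6 in WT Mitsui-7 rats (3.53 ± 0.29, adjusted p = 2.47e-10) and 2.60 in WT NM-403 rats (1.38 ± 0.29, adjusted p = 0.00507). In this fit Slc7a11 thus moved the most of the 9 tested genes in each of these comparisons. Within single slides its log2 difference from controls was above 0 on every slide that held both groups. It ran from 2.55 to 4.54 over 5 slides in p53het Mitsui-7, from 0.41 to 3.27 over 4 in p53het NM-403, from 3.04 to 4.01 over 4 in WT Mitsui-7 and from 0.46 to 2.12 over 5 in WT NM-403. With normexp background correction the log2 changes were smaller, at 1.26, 0.49, 1.83 and 0.60 in that order of groups. The call in p53het NM-403 rats was then lost (adjusted p = 0.141). In WT NM-403 rats Slc7a11, at 0.599991 with normexp, then no longer moved the most. Srxn1 changed there by 0.600421 or more under every alternative.

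**Figure D1:**
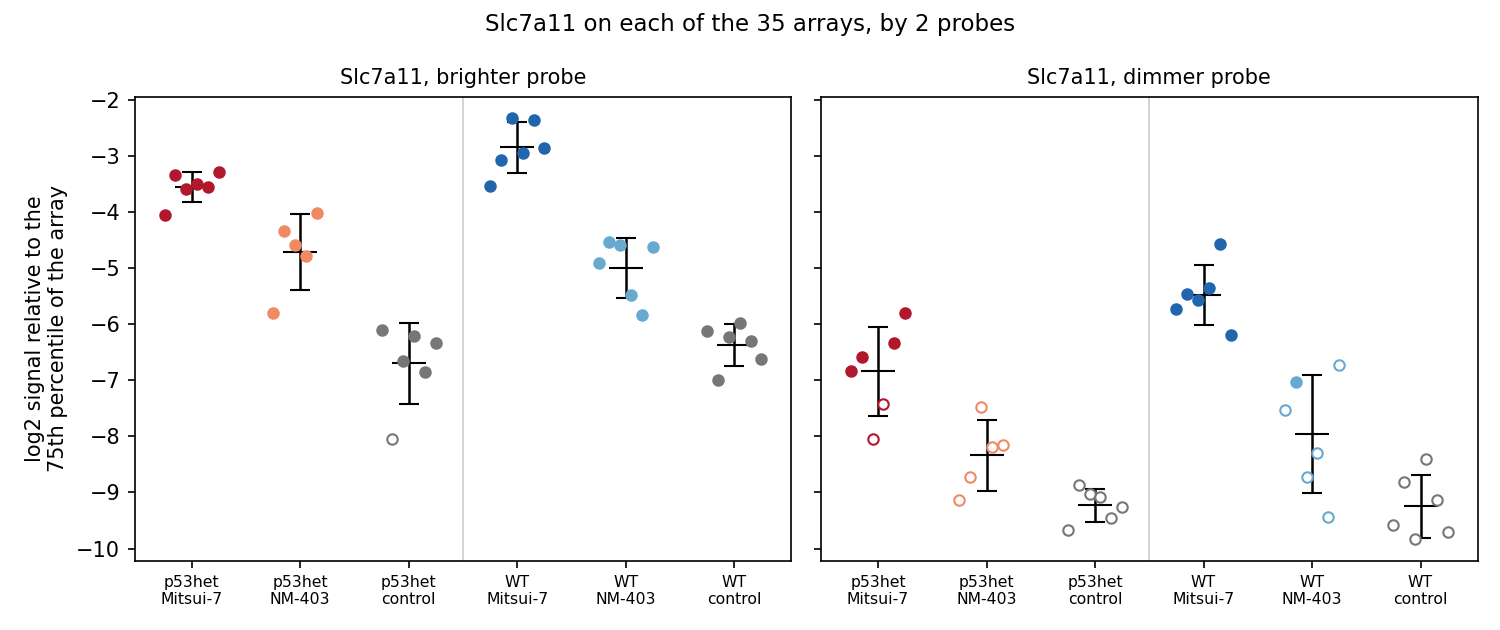
Slc7a11 signal on each array as log2 relative to the 75th percentile of the array, for the brighter probe (left) and the dimmer probe (right), by group. Points are rats, open where the probe was not well above background, and bars are the mean and SD. With the brighter probe every rat given nanotubes lies above every control of its genotype, and all WT Mitsui-7 rats lie between -3.54 and -2.31.

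The dimmer Slc7a11 probe was well above background in 4 of 6 p53het Mitsui-7 rats, 0 of 5 p53het NM-403 rats and 0 of 6 p53het controls, and in 6 of 6 WT Mitsui-7 rats, 1 of 6 WT NM-403 rats and 0 of 6 WT controls. Since no control array measured it, its fold over control is a bound: the control arrays were set to the lowest signal among probes well above background, or to the probe's own signal where higher. The level was at least 4.59-fold higher in WT Mitsui-7 rats (measured means -5.48 and -9.25). In p53het Mitsui-7 rats the value was 1.82-fold (measured means -6.84 and -9.23). It is not a strict bound, since exposed arrays not above background entered at their measured signal. The limma fit on the measured signals, which does not test these bounds, gave adjusted p = 1.69e-08 in WT and 5.58e-05 in p53het Mitsui-7 rats. For NM-403 no bound above 1 could be given, and with this probe neither NM-403 comparison passed the test (adjusted p = 0.361 in p53het and 0.0583 in WT rats).

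Mitsui-7 and NM-403 differed in Slc7a11 in WT rats. The level was 4.45-fold higher with Mitsui-7 than with NM-403 in WT rats (log2 2.15 ± 0.29, adjusted p = 1.14e-05). In p53het rats it was 2.22-fold higher with Mitsui-7 (log2 1.15 ± 0.31, 95% interval 0.52 to 1.78), which did not pass (adjusted p = 0.0549). It passed with slide as a fixed block (1.29, adjusted p = 0.0208), under 6 other settings (0.77 to 1.32, adjusted p = 0.00404 to 0.0466) and on leaving out any 1 of 5 arrays (numbers are replicates), p53het control 2, p53het Mitsui-7 1, p53het NM-403 5, WT Mitsui-7 1 or WT NM-403 5 (1.15 to 1.32). The labels give the same dose for both nanotubes.

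By mean level the groups stood in the order WT Mitsui-7 (-2.84), p53het Mitsui-7 (-3.55), p53het NM-403 (-4.70), WT NM-403 (-5.00), WT control (-6.37) and p53het control (-6.70). The ranges of the genotypes overlapped within Mitsui-7, within NM-403 and within the controls. The response of Slc7a11 was not shown to differ by genotype. The difference between the p53het and the WT response was -0.39 ± 0.42 for Mitsui-7 (95% interval -1.23 to 0.46) and 0.62 ± 0.43 for NM-403 (-0.25 to 1.49). For p53het against WT controls it was -0.32 ± 0.29 (-0.92 to 0.28). The dimmer probe gave -1.38 ± 0.54 for Mitsui-7 (limma unadjusted p = 0.0166, adjusted p = 1.000), a measure that includes arrays below background.

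Slc3a2, the heavy chain that holds the Slc7a11 protein in the membrane, did not follow Slc7a11. It was named after its values were seen. It fell by 0.38 ± 0.10 in p53het Mitsui-7 rats (adjusted p = 0.00782) and by 0.35 ± 0.10 in WT Mitsui-7 rats (adjusted p = 0.0107), and did not pass in p53het NM-403 rats (-0.12, adjusted p = 0.698) or WT NM-403 rats (-0.13, adjusted p = 0.608).

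Over the whole list, Slc7a11 was the only gene called in all 4 comparisons of nanotubes with vehicle. In p53het Mitsui-7 rats 1 of the 9 tested genes was called higher and 1 lower (Slc7a11 and Sod3), where 5.29% of all genes were called higher and 6.28% lower. In p53het NM-403 rats 1 was higher and 0 lower, against 1.27% and 0.253% of all genes. In WT Mitsui-7 rats 3 were higher (Slc7a11, Srxn1, Nfe2l2) and 1 lower (Sod3), against 8.41% and 5.56% of all genes. In WT NM-403 rats 3 were higher (Slc7a11, Srxn1, Sod2) and 0 lower, against 2.3% and 0.903%. In limma 4, 4, 5 and 5 of the 9 genes had an unadjusted p below 0.05 in these 4 comparisons. Of all genes 24.9%, 12.0%, 27.2% and 15.1% did. The median log2 change of the 9 genes was 0.10, 0.09, 0.08 and 0.26 in the same order, beside -0.02, -0.08, 0.03 and -0.002 for all genes.

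**Figure D2:**
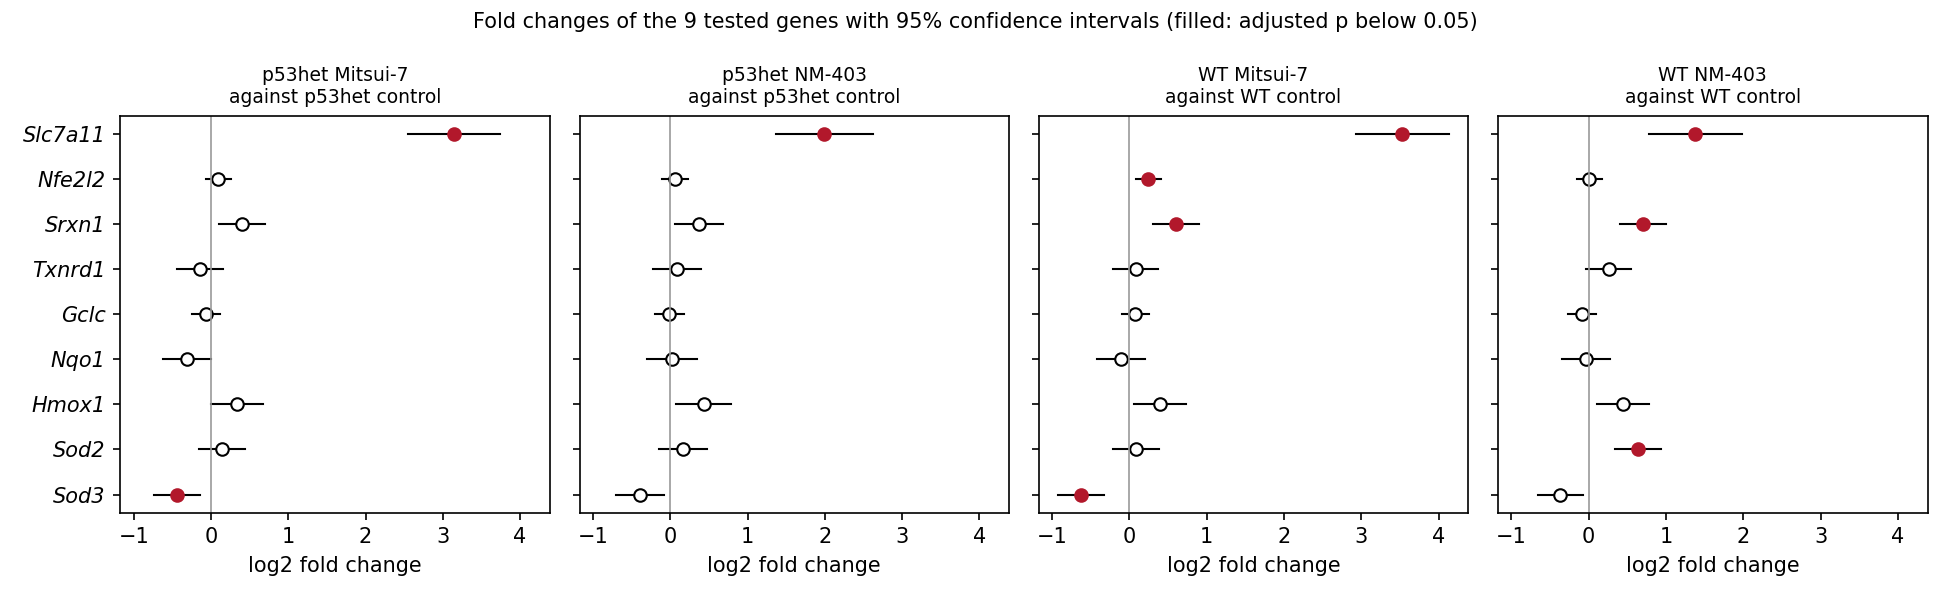
Log2 fold changes of the 9 tested genes (rows) in 4 comparisons of nanotubes with vehicle (panels), with 95% confidence intervals from limma. Filled points have an adjusted p below 0.05. Slc7a11, at 1.38 to 3.53, stands to the right of all other genes in every panel.

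Nfe2l2, the gene of NRF2 itself, was called higher in WT Mitsui-7 rats, by a small step. Its level there ran from 0.78 to 1.25 (median 0.92), against 0.52 to 0.84 (median 0.71) in WT controls. The ranges overlapped, and the fold was 1.18 (log2 0.24 ± 0.08, adjusted p = 0.0306). The call was lost without any 1 of 6 arrays, WT Mitsui-7 3, 4 or 5 or WT control 3, 4 or 5 (0.19 to 0.25, adjusted p = 0.0514 to 0.114), with scaling to the array median (0.17, adjusted p = 0.239), with normexp (0.22, adjusted p = 0.0726) and with no filter on dim probes (adjusted p = 0.0542). The changes in p53het Mitsui-7, p53het NM-403 and WT NM-403 rats were 0.10, 0.06 and 0.01. WT Mitsui-7 and WT NM-403 rats differed by 0.23 ± 0.08 (adjusted p = 0.1), which passed with slide as a random block (0.21, adjusted p = 0.0445). NRF2 is known to be controlled mainly at the level of the protein, which was not measured.

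Srxn1, which encodes sulfiredoxin, rose in WT rats with both nanotubes. Its level ran from -1.45 to -0.83 with Mitsui-7 (median -1.04), from -1.45 to -0.59 with NM-403 (median -1.02) and from -2.04 to -1.19 in WT controls (median -1.72). In each exposed group 4 of 6 rats lay above the highest control, and the ranges overlapped. The fold was 1.52 with Mitsui-7 (log2 0.61 ± 0.15, adjusted p = 0.00399) and 1.63 with NM-403 (0.70 ± 0.15, adjusted p = 0.00365). Within slides the difference was above 0 on 3 of 4 slides for Mitsui-7 (-0.26 to 1.21) and on 5 of 5 for NM-403 (0.40 to 1.15).

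In p53het rats Srxn1 ran from -1.64 to -1.001 with Mitsui-7 (median -1.14), was -1.27, -1.30, -1.12, -1.45 and -1.22 with NM-403, and ran from -1.77 to -1.47 in controls (median -1.69). All 5 p53het NM-403 rats lay above all p53het controls. Neither change passed the test, with 0.40 ± 0.15 for Mitsui-7 (adjusted p = 0.0706) and 0.38 ± 0.15 for NM-403 (adjusted p = 0.285). The Mitsui-7 change passed with quantile normalization (0.46, adjusted p = 0.0369), with the authors' values (0.45, adjusted p = 0.0275), with array weights, with slide as a fixed block (0.38, adjusted p = 0.0428) or random block, and without p53het Mitsui-7 3 or 6 (0.45 and 0.48). The genotype difference in the response was -0.21 ± 0.21 for Mitsui-7 and -0.33 ± 0.21 for NM-403, and neither passed (adjusted p = 1.000 and 0.983).

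Hmox1, heme oxygenase, did not pass the test in any of the 4 exposed groups, where its log2 difference from control was 0.34 to 0.44. Its level ran from -1.16 to -0.20 in p53het Mitsui-7 rats (median -0.30), was -0.80, -0.10, -0.48, -0.46 and -0.12 in p53het NM-403 rats, and ran from -1.24 to -0.32 in p53het controls (median -0.83). In WT rats it ran from -0.99 to -0.10 with Mitsui-7 (median -0.62), from -0.73 to -0.28 with NM-403 (median -0.60) and from -1.25 to -0.83 in controls (median -0.91). Of the 4 pairs of groups, WT NM-403 and WT control did not overlap. The log2 differences were 0.34 ± 0.16 and 0.43 ± 0.17 in p53het rats and 0.40 ± 0.16 and 0.44 ± 0.16 in WT rats, for Mitsui-7 and NM-403 in turn (adjusted p = 0.107 to 0.274). With slide as a fixed block both Mitsui-7 changes passed (0.40, adjusted p = 0.0433, in p53het and 0.42, adjusted p = 0.0356, in WT rats). With slide as a random block both Mitsui-7 changes and that in WT NM-403 rats passed (adjusted p = 0.0331 to 0.0478), as did the change in WT Mitsui-7 rats with scan day as a block (0.44, adjusted p = 0.0335) and that in p53het NM-403 rats with array weights (0.48, adjusted p = 0.0409). Without p53het Mitsui-7 6 the change in p53het Mitsui-7 rats was 0.47 and passed (adjusted p = 0.0422).

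Nqo1, Gclc and Txnrd1, a quinone reductase, the catalytic subunit of glutathione precursor synthesis and thioredoxin reductase, were called in no comparison. Their log2 changes against control ran from -0.31 to 0.02 for Nqo1, from -0.08 to 0.08 for Gclc and from -0.14 to 0.26 for Txnrd1 over the 4 exposed groups. The intervals bound what could have been missed: the highest upper 95% limit was 0.35 for Nqo1, 0.26 for Gclc and 0.55 for Txnrd1, each under the change of Slc7a11 in the same groups. Nqo1 was lowest in p53het Mitsui-7 rats, at -2.95 to -2.49 (median -2.80), against -2.64 to -2.15 (median -2.51) in p53het controls, and did not pass (-0.31 ± 0.15, adjusted p = 0.207). Txnrd1 had a further, dimmer probe, well above background on all 35 arrays, whose changes ran from -0.03 to 0.27 and also did not pass (adjusted p = 0.0789 in WT Mitsui-7 rats, 0.288 in WT NM-403 rats).

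**Figure D3:**
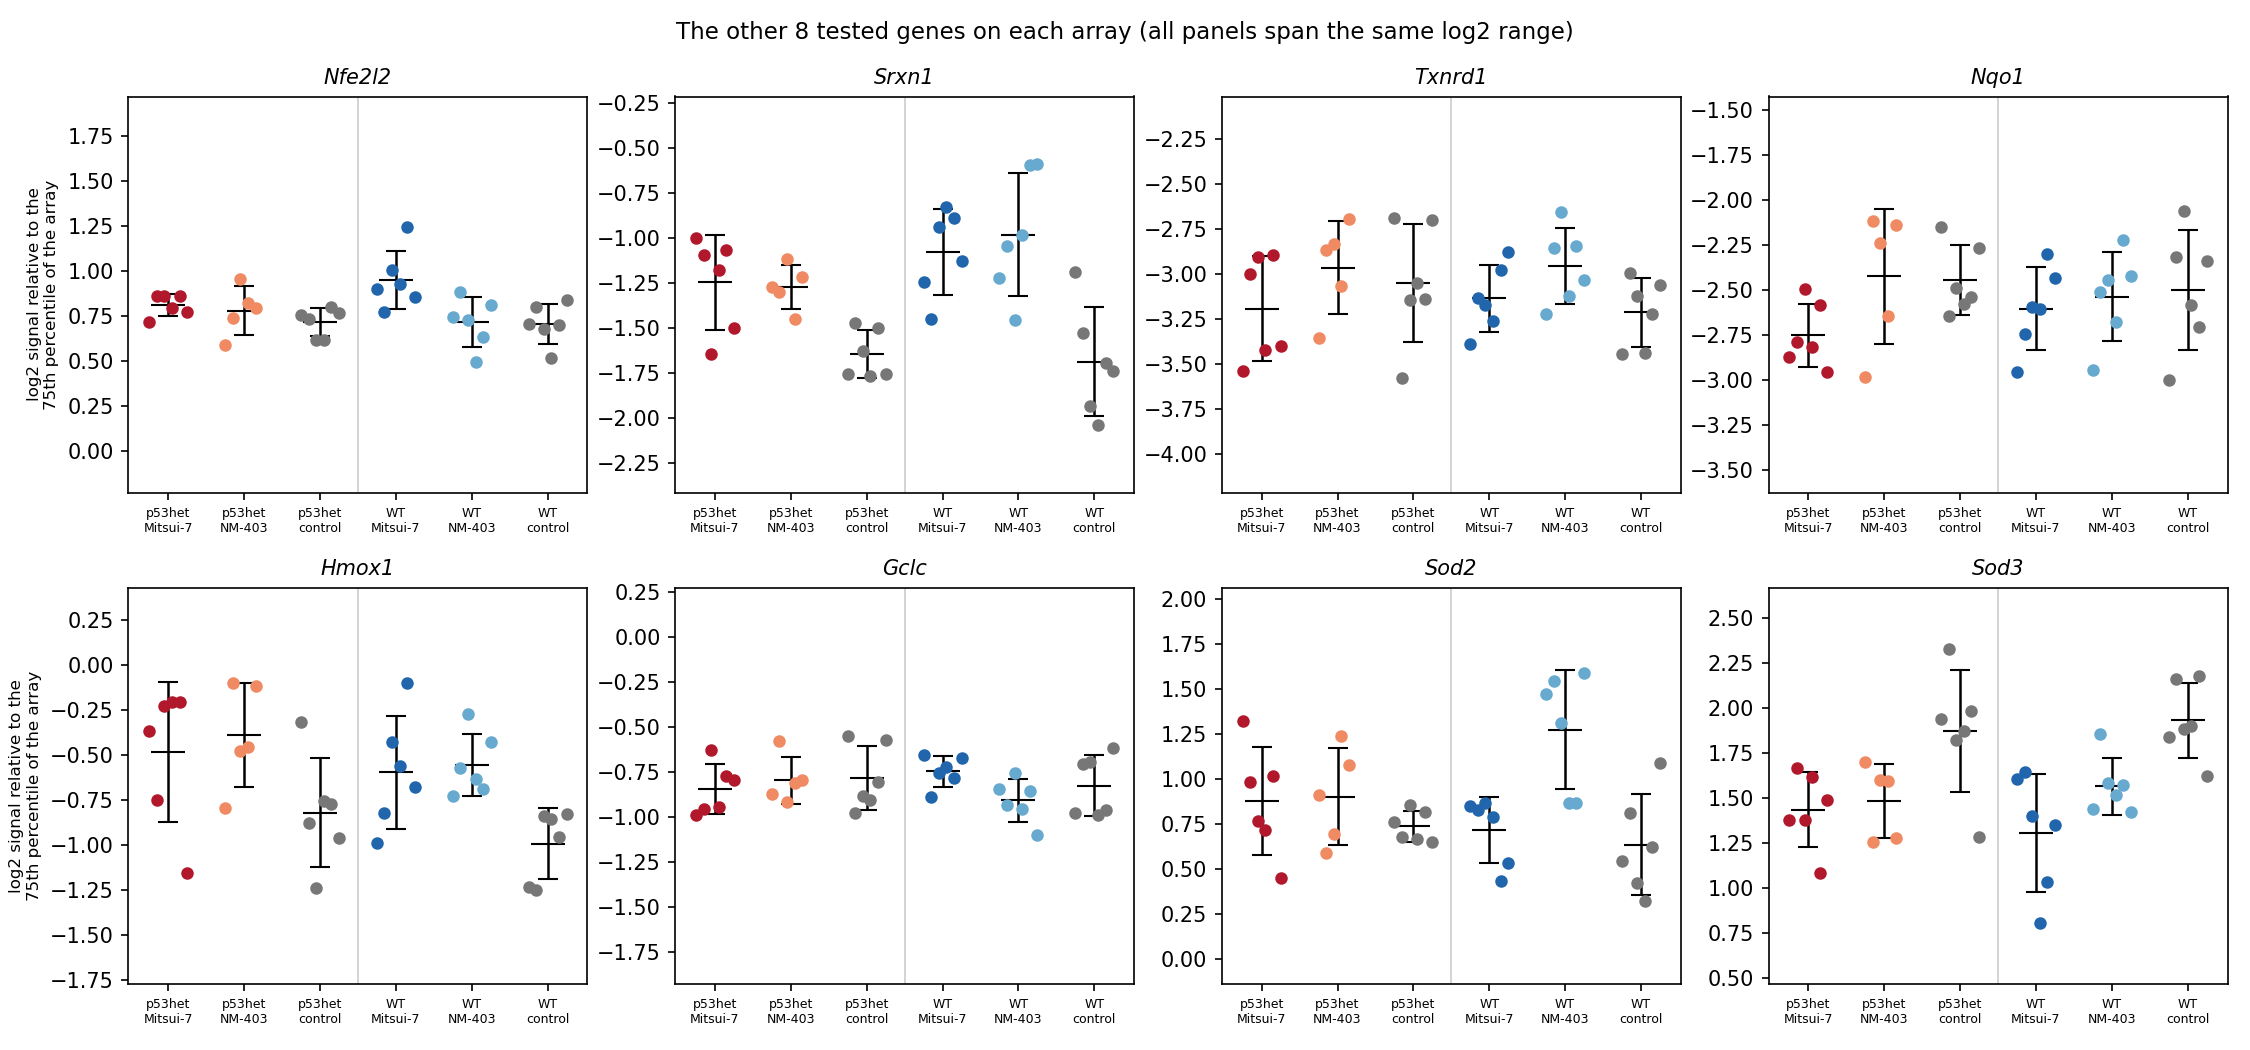
Signals of the other 8 tested genes on each array, as log2 relative to the 75th percentile of the array, by group. Points are rats, bars are the mean and SD, and every panel spans the same log2 range. In WT rats Sod3 is lower with Mitsui-7 and Srxn1 higher with both nanotubes, with overlapping ranges, and Gclc stays between -1.104 and -0.55 on all arrays.

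Sod2, the mitochondrial superoxide dismutase, rose with NM-403 in WT rats. Its level ran from 0.43 to 0.87 in WT Mitsui-7 rats (median 0.81), from 0.87 to 1.59 in WT NM-403 rats (median 1.39) and from 0.32 to 1.09 in WT controls (median 0.59). The WT NM-403 rats overlapped with the top of the controls. The fold was 1.56 over control (log2 0.64 ± 0.15, adjusted p = 0.00995), and above 0 within 5 of 5 slides (0.32 to 1.15). With Mitsui-7 in WT rats the change was 0.08 ± 0.15. Sod2 was thus lower with Mitsui-7 than with NM-403 in WT rats, by 0.56 ± 0.15 (adjusted p = 0.0261). That call was lost without any 1 of 5 arrays, WT Mitsui-7 5 or 6 or WT NM-403 1, 2 or 6 (-0.52 to -0.50, adjusted p = 0.0649 to 0.0894), and with array weights (-0.46, adjusted p = 0.065).

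In p53het rats Sod2 ran from 0.45 to 1.32 with Mitsui-7 (median 0.88), was 0.91, 0.59, 0.70, 1.24 and 1.08 with NM-403, and ran from 0.65 to 0.86 in controls (median 0.72). The ranges overlapped, and the changes of 0.14 ± 0.15 and 0.16 ± 0.15 did not pass. The genotype difference in the NM-403 response was -0.47 ± 0.21 (95% interval -0.91 to -0.04), which did not pass over all genes (adjusted p = 0.983).

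Sod3, the extracellular superoxide dismutase, fell with Mitsui-7 in both genotypes. It ran from 1.08 to 1.67 in p53het Mitsui-7 rats (median 1.43), against 1.28 to 2.33 in p53het controls (median 1.91). In WT rats it ran from 0.81 to 1.65 with Mitsui-7 (median 1.38), against 1.62 to 2.17 in controls (median 1.89), and 5 of 6 WT Mitsui-7 rats lay below all WT controls. It fell by 0.44 ± 0.15 in p53het Mitsui-7 rats (adjusted p = 0.0481) and by 0.62 ± 0.15 in WT Mitsui-7 rats (adjusted p = 0.00327). Within slides the difference was below 0 on all 5 slides in p53het (-0.74 to -0.24) and on all 4 in WT rats (-1.09 to -0.20). The p53het call stood at the threshold: it was lost on leaving out any 1 of 22 of the 35 arrays, among them 5 of 6 p53het Mitsui-7 rats and 5 of 6 p53het controls (-0.47 to -0.34, adjusted p = 0.0502 to 0.139). It was also lost with quantile normalization, the array median, normexp, the authors' values and no filter on dim probes (-0.44 to -0.39, adjusted p = 0.0546 to 0.0935).

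With NM-403 Sod3 was 1.70, 1.25, 1.60, 1.60 and 1.28 in p53het rats and ran from 1.42 to 1.86 in WT rats (median 1.54). The changes against control were -0.39 ± 0.15 and -0.37 ± 0.15 and did not pass (adjusted p = 0.269 and 0.197), but passed with array weights (-0.44 and -0.41, adjusted p = 0.0339 and 0.0469). Of the WT NM-403 rats 5 of 6 lay below all WT controls. Sod3 was measured by 1 probe printed on 10 spots, all averaged here.

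Between the nanotubes, 1 of the 9 genes was called higher and 1 lower in WT rats (Slc7a11 and Sod2), where 2.77% of all genes were higher and 0.552% lower with Mitsui-7 than with NM-403. In p53het rats none was called, where 1.09% of all genes were higher and 0.278% lower. There limma gave 2 of the 9 genes an unadjusted p below 0.05, Slc7a11 and Nqo1 (-0.33 ± 0.16, adjusted p = 0.4). For Gclc, Txnrd1, Hmox1 and Srxn1 the differences between Mitsui-7 and NM-403 ran from -0.23 to 0.16 over both genotypes, and the widest of their 95% intervals reached from -0.44 to 0.26 (Hmox1 in p53het rats).

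Genotype made no called difference to any of the 9 genes. Between p53het and WT controls 0 of 9 were called (0% of all genes), 484 of all 24473 genes and 0 of the 9 having an unadjusted p below 0.05 in limma. For the genotype difference in the Mitsui-7 response 0 were called (0% of all genes, 730 genes and 0 of the 9 at an unadjusted p below 0.05). For that in the NM-403 response 0 were called (0% of all genes, 413 genes and 1 of the 9, Sod2, at an unadjusted p below 0.05). The differences between control groups ran from -0.32 (Slc7a11) to 0.17 (Hmox1).

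Other genes of the same chemistry were read from 8 lists with 86 genes, of which 85 were tested and Akr1b10 was too dim. In p53het Mitsui-7 rats 10 were higher and 10 lower, where 5.29% and 6.28% of all genes were. In p53het NM-403 rats 2 were higher and 0 lower, against 1.27% and 0.253% of all genes. In WT Mitsui-7 rats 17 were higher and 7 lower, against 8.41% and 5.56%, and in WT NM-403 rats 5 and 1, against 2.3% and 0.903%. Their median log2 changes were 0.01, -0.003, 0.06 and 0.02. With scaling to the array median the WT Mitsui-7 counts were 13 higher and 13 lower, and the share of higher calls among all genes there was 43.2% in place of 60.2% (49.6% with quantile normalization, 36.9% with the authors' values). The 8 regulators of NRF2, among them Keap1, Cul3, Bach1 and the small Maf genes, had no call in any of these 4 comparisons (median -0.13, -0.11, -0.15 and -0.06).

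Of 10 genes that produce superoxide and peroxide, 5 were higher in p53het Mitsui-7 rats, 1 in p53het NM-403 rats, 6 in WT Mitsui-7 rats and 2 in WT NM-403 rats, with none lower. Of all genes 5.29%, 1.27%, 8.41% and 2.3% were higher in these comparisons. Duox2 is among the genes counted as higher with Mitsui-7 in both genotypes. Duox2, a dual oxidase of airway epithelium that makes hydrogen peroxide, ran from -6.03 to -4.71 in p53het Mitsui-7 rats (median -5.35), against -9.34 to -7.15 in p53het controls, where no array had it above background. Its level was at least 4.92-fold higher in p53het Mitsui-7 rats (measured means -5.34 and -8.24). The adjusted p of 9.92e-06 came from limma on the measured signals, not from a test of this bound. In WT Mitsui-7 rats Duox2 ran from -5.43 to -4.20 (median -5.25), against -9.27 to -6.95 in WT controls (median -8.35). It passed the same test there (adjusted p = 1.3e-06). Only 1 of 6 WT control arrays had it above background, so no fold is given there.

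Cybb, the catalytic subunit of the phagocyte NADPH oxidase, rose by 0.70 ± 0.21 in p53het Mitsui-7 rats (adjusted p = 0.0256) and by 1.25 ± 0.21 in WT Mitsui-7 rats (adjusted p = 6.46e-05). Ncf4, a cytosolic subunit of that oxidase, was higher in all 4 exposed groups. It changed by 0.64 ± 0.12 in p53het Mitsui-7, 0.53 ± 0.12 in p53het NM-403, 0.83 ± 0.12 in WT Mitsui-7 and 0.55 ± 0.12 in WT NM-403 rats (adjusted p = 0.000319, 0.016, 4.99e-06 and 0.0046). Nox1 rose by 0.93 ± 0.22 in WT Mitsui-7 rats and Duox1 by 0.64 ± 0.19 in p53het Mitsui-7 rats. Cyba, the membrane partner of Cybb, rose by 0.45 ± 0.12 in WT NM-403 rats, but was not particular to them. Its median was 4.22 in WT Mitsui-7 and 4.06 in WT NM-403 rats, against 3.62 in WT controls. In p53het rats it was 4.33 with Mitsui-7 and 4.15 with NM-403, against 3.75 in controls.

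**Figure D4:**
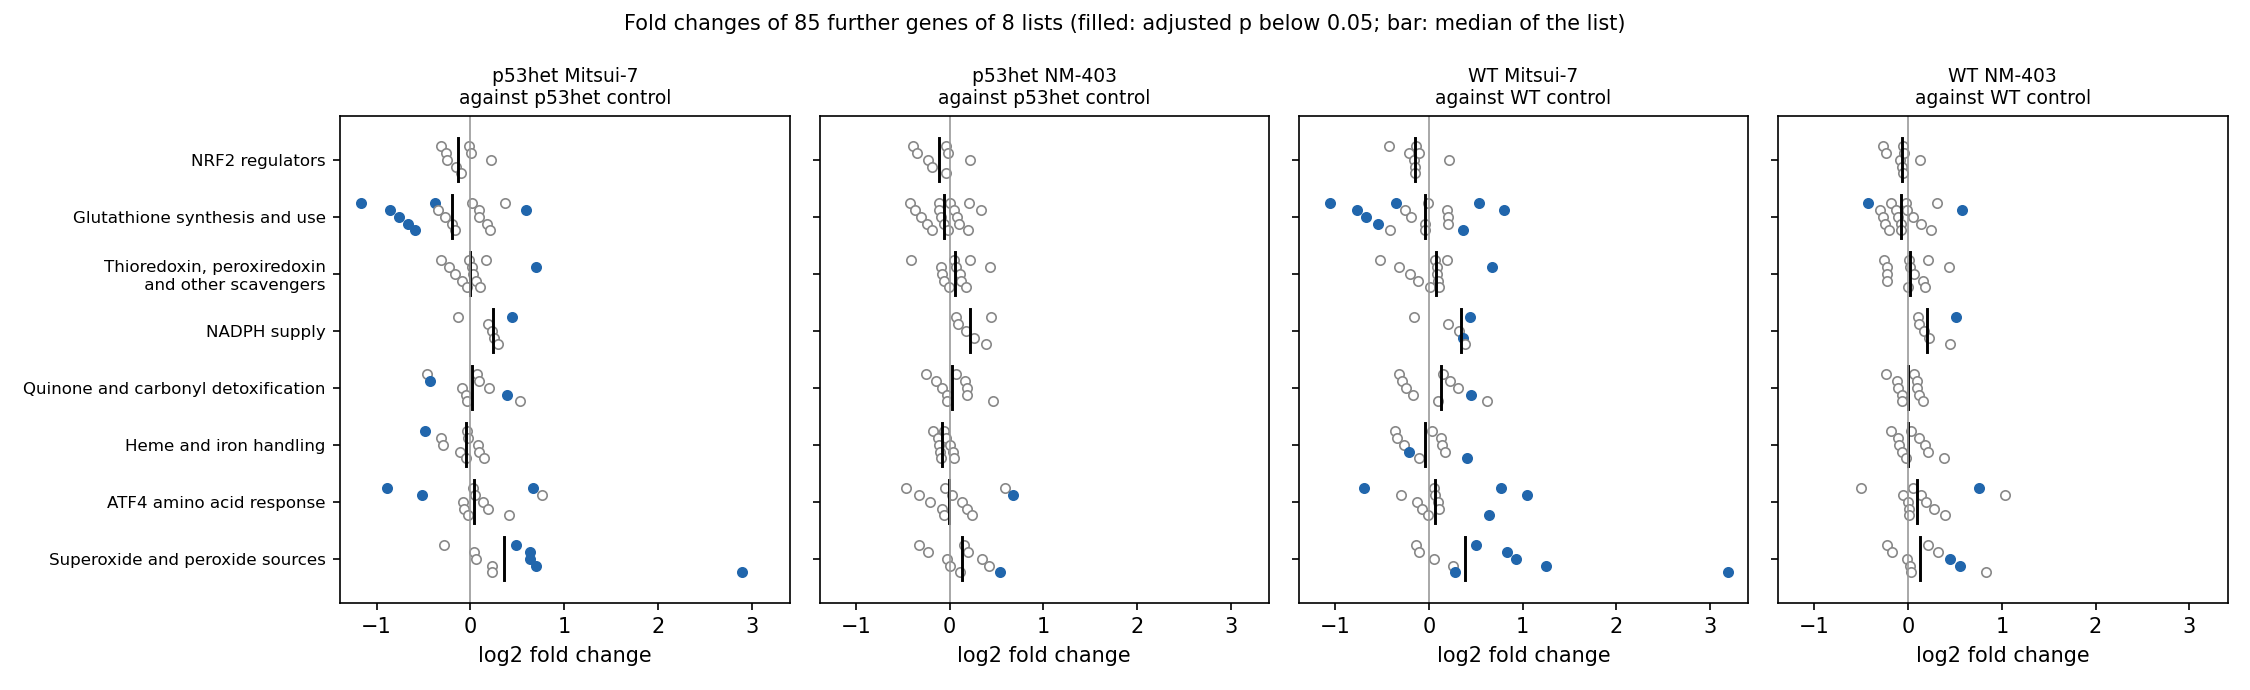
Log2 fold changes of 85 further genes in 8 lists (rows) in 4 comparisons of nanotubes with vehicle (panels). Points are genes, filled where the adjusted p is below 0.05, and bars are list medians. The rightmost point in each Mitsui-7 panel is Duox2, whose position is not a measured fold, since 0 of 6 p53het and 1 of 6 WT control arrays had it above background. Several glutathione transferases lie to the left of 0.

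Glutathione genes were called in both directions with Mitsui-7. Of 17, 1 was higher and 6 lower in p53het Mitsui-7 rats and 3 were higher and 5 lower in WT Mitsui-7 rats. Of all genes 5.29% were higher and 6.28% lower in the p53het comparison, and 8.41% and 5.56% in the WT comparison. The higher call in p53het rats is thus near the share of all genes. Ggt1, which breaks down extracellular glutathione, ran from -2.55 to -1.90 in WT Mitsui-7 rats (median -2.07) and from -2.76 to -1.87 in WT NM-403 rats (median -2.34), against -3.22 to -2.65 in WT controls (median -2.90). The WT Mitsui-7 rats lay wholly above the controls. In WT rats Ggt1 changed by 0.80 ± 0.16 with Mitsui-7 (adjusted p = 0.000512) and 0.58 ± 0.16 with NM-403 (adjusted p = 0.0328). Its median in p53het rats was also higher, at -2.31 with Mitsui-7 and -2.53 with NM-403, against -2.87 in controls. The transferases Gsta1, Gsta3 and Gstm2, which conjugate electrophiles and include known NRF2 targets, fell with Mitsui-7 in both genotypes. The falls were 0.76 ± 0.10, 1.17 ± 0.21 and 0.86 ± 0.12 in p53het and 0.76 ± 0.10, 1.05 ± 0.21 and 0.67 ± 0.12 in WT rats (adjusted p between 1.72e-06 and 0.000782). These families have near-identical members, so the signal of 1 probe may include its relatives. Gsta4 fell by 0.67 ± 0.11 in p53het Mitsui-7 rats, by 0.54 ± 0.11 in WT Mitsui-7 rats and by 0.43 ± 0.11 in WT NM-403 rats, and did not pass in p53het NM-403 rats (-0.30, adjusted p = 0.245). In p53het NM-403 rats no glutathione gene passed.

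Of 12 genes for thioredoxin, peroxiredoxins and other scavengers, Prdx5 alone was called. It rose by 0.71 ± 0.16 in p53het Mitsui-7 (adjusted p = 0.00327) and by 0.67 ± 0.16 in WT Mitsui-7 rats (adjusted p = 0.00406). Among all genes 5.29% and 8.41% were higher in these comparisons. Of 6 genes that supply NADPH, Idh1, the cytosolic isocitrate dehydrogenase, rose by 0.43 ± 0.12 in WT Mitsui-7 and 0.51 ± 0.12 in WT NM-403 rats. Of 10 tested genes for quinones and carbonyls, Ugt1a6 rose by 0.39 ± 0.10 in p53het Mitsui-7 and by 0.45 ± 0.10 in WT Mitsui-7 rats, and Ptgr1 fell by 0.43 ± 0.12 in p53het Mitsui-7 rats. Of 10 heme and iron genes, Blvrb fell by 0.49 ± 0.14 in p53het Mitsui-7 rats. In WT Mitsui-7 rats the ferroxidase Cp rose by 0.41 ± 0.09 and Hmox2 fell by 0.22 ± 0.07. Among all genes 6.28% were lower in p53het Mitsui-7 and 5.56% in WT Mitsui-7 rats, and 2.3% were higher in WT NM-403 rats. In the quinone and heme lists at most 1 of 10 genes was called in either direction per comparison, which is near the share of all genes with Mitsui-7.

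Of the 12 genes of the ATF4 amino acid response, 1 was higher and 2 lower in p53het Mitsui-7, 1 and 0 in p53het NM-403, 3 and 1 in WT Mitsui-7 and 1 and 0 in WT NM-403 rats. Among all genes 5.29% were higher and 6.28% lower in p53het Mitsui-7 rats, and 1.27% and 0.253% in p53het NM-403 rats. In WT rats these shares were 8.41% and 5.56% with Mitsui-7 and 2.3% and 0.903% with NM-403. Phgdh, the entry enzyme of serine synthesis, was higher in all 4 exposed groups. It ran from -0.98 to -0.57 in p53het Mitsui-7 rats (median -0.77), against -1.79 to -1.15 in p53het controls (median -1.41), and from -1.22 to -0.61 in WT Mitsui-7 rats (median -0.89), against -1.68 to -1.44 in WT controls (median -1.59). The Mitsui-7 rats of both genotypes lay wholly above their controls. The changes were 0.67 ± 0.13, 0.67 ± 0.14, 0.64 ± 0.13 and 0.76 ± 0.13 in the 4 groups in the order above (adjusted p = 0.000813, 0.00575, 0.000855 and 0.000597). Cth, which makes cysteine from cystathionine, fell by 0.89 ± 0.22 in p53het Mitsui-7 and by 0.69 ± 0.22 in WT Mitsui-7 rats. Psat1, the next enzyme of serine synthesis, fell by 0.51 ± 0.17 in p53het Mitsui-7 rats. Slc7a5, a transporter of large neutral amino acids, rose by 1.05 ± 0.30 and Atf3 by 0.77 ± 0.20 in WT Mitsui-7 rats. Of the WT controls, 4 of 6 had Slc7a5 above background.

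Levels of cell type markers moved in the same groups. Of 12 macrophage and monocyte markers 4 were higher in p53het Mitsui-7, 0 in p53het NM-403, 7 in WT Mitsui-7 and 3 in WT NM-403 rats, with none lower. The shares of all genes higher in these comparisons were 5.29%, 1.27%, 8.41% and 2.3%. The level of the list, as the mean log2 value of its markers, ran from -1.08 to -0.74 in p53het Mitsui-7 rats, -1.61 to -0.87 in p53het NM-403 rats and -1.54 to -1.24 in p53het controls. It ran from -1.20 to -0.46 in WT Mitsui-7 rats, -1.27 to -0.96 in WT NM-403 rats and -1.69 to -1.56 in WT controls. This list was thus highest where Slc7a11 was highest, and its part in the rise of Slc7a11, Cybb and Ncf4 was not tested. Marco, a receptor of alveolar macrophages, was well above background on 12 of 35 arrays. Its values are part of the list mean. In WT NM-403 rats its change was 2.36 ± 0.83 and did not pass (adjusted p = 0.126).

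Of 7 neutrophil markers 0 were higher and 1 lower in p53het Mitsui-7, 2 and 0 in p53het NM-403, 0 and 1 in WT Mitsui-7 and 4 and 0 in WT NM-403 rats. Among all genes 1.27% were higher in p53het NM-403 and 2.3% in WT NM-403 rats. With Mitsui-7 6.28% were lower in p53het and 5.56% in WT rats. The list ran from -2.31 to -1.33 in WT NM-403 rats, where Sod2 rose, against -3.66 to -2.62 in WT Mitsui-7 rats and -3.42 to -2.60 in WT controls. It ran from -3.93 to -2.32 in p53het Mitsui-7, -2.44 to -1.86 in p53het NM-403 and -2.96 to -2.70 in p53het control rats. Its part in the Sod2 values was not tested.

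Endothelial and alveolar type 1 markers were lower beside Sod3. Of 8 endothelial markers 5 were lower with Mitsui-7 in each genotype and 0 with NM-403, and none was higher. The list ran from 0.77 to 1.22 in p53het Mitsui-7 rats, against 1.42 to 1.71 in p53het controls, and from 0.49 to 1.27 in WT Mitsui-7 rats, against 1.38 to 1.70 in WT controls. Of 6 alveolar type 1 markers 3 were lower in p53het Mitsui-7, 2 in p53het NM-403, 4 in WT Mitsui-7 and 1 in WT NM-403 rats. That list ran from 2.88 to 3.09 in p53het Mitsui-7 rats, against 3.22 to 3.63 in p53het controls, and from 2.94 to 3.13 in WT Mitsui-7 rats, against 3.23 to 3.43 in WT controls. Among all genes 6.28% were lower in p53het Mitsui-7, 0.253% in p53het NM-403, 5.56% in WT Mitsui-7 and 0.903% in WT NM-403 rats. The part of these 2 lists in the fall of Sod3 was not tested.

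Of the remaining lists, the 7 alveolar type 2 and 5 smooth muscle markers had no call in the 4 comparisons. Of 5 ciliated cell markers 2 were higher in p53het Mitsui-7 and 3 in WT Mitsui-7 rats, beside Duox2, and of 3 club cell markers 1 was higher and 1 lower in each. Of 4 erythroid markers 1 was lower in p53het Mitsui-7 and 3 in WT Mitsui-7 rats, and of 4 cardiac muscle markers 3 in each. Of 4 mesothelial markers 1 was higher and 1 lower in p53het Mitsui-7, 1 lower in p53het NM-403, 1 higher and 2 lower in WT Mitsui-7 and 3 lower in WT NM-403 rats. Among all genes 5.29% were higher and 6.28% lower in p53het Mitsui-7 rats, and 8.41% and 5.56% in WT Mitsui-7 rats. With NM-403 0.253% were lower in p53het and 0.903% in WT rats. The part of these cells in any result was not tested.

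The genes whose levels ran closest to Slc7a11 over the 35 arrays were ranked by Pearson's r among 15179 named genes well above background on every array of at least 1 group. They were Pla2g7 (r = 0.96), Bpifb1 (0.94), Il1rn (0.94), Matk (0.93) and Prss30 (0.93). Pla2g7 encodes a secreted phospholipase that hydrolyses platelet-activating factor and Il1rn the interleukin-1 receptor antagonist. These r values hold the differences between groups: with the group means removed they were 0.67 for Pla2g7, 0.34, 0.43 and 0.47 for Bpifb1, Il1rn and Matk, and 0.03 for Prss30. The choice by r over all groups fixes that they differ between the groups as Slc7a11 does, so no test of them is given.

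Within the list of oxidant defence genes, r with Slc7a11 over the 35 arrays was 0.60 for Nfe2l2, 0.52 for Hmox1, 0.52 for Srxn1 and -0.73 for Sod3, and between -0.17 and 0.10 for Nqo1, Gclc, Txnrd1 and Sod2. With the group means removed it was 0.50 for Txnrd1, 0.42 for Hmox1, 0.35 for Nqo1, 0.33 for Nfe2l2, 0.14 for Gclc, -0.03 for Sod2, -0.19 for Srxn1 and -0.38 for Sod3. The arrays share slides and groups, so these values describe the arrays and carry no test.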

How the data were processed

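The scanner files hold one intensity per spot on a linear scale, background-corrected by the authors with Agilent Feature Extraction (version 12.0.1.1 in the submitters' processing notes). The authors' deposited matrix holds log2 values of 11555 probes, centred per probe, with a filter that no label or header states. Its column medians ran from -0.083 to 0.069.

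From each array's processed signal, log2 was taken and the 75th percentile of non-control spots subtracted. Outlier spots (221 to 699 per array) were set to missing, and no value of the 10 genes was lost. Spots of 1 probe were averaged, and a gene was its probe with the highest mean. Genes were tested if 5 or more arrays had them well above background and each group had 3 or more measured arrays. All 35 arrays entered 1 limma 3.58.1 fit (R 4.3.3) with a mean per group and Benjamini-Hochberg adjustment within each comparison. The fit was also run on simulated data with independent noise and no slide effect, so that run does not bear on effects of slides.

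The 10 genes and all lists were chosen with earlier results of these data known. Named were all 10 genes, up to 4 called genes per list and comparison by size of change, and the 5 genes most like Slc7a11. Some genes that this rule names are not reported here. Replicate numbers do not pair the arrays: same-numbered arrays had a mean residual r of 0.03, from -0.57 to 0.69. Alternatives were other scalings, normexp with an offset of 50, the authors' values, filters, probe averaging, array weights, blocks and leaving out each array. Scan day as a block and the other Slc7a11 probe were added after seeing the data. The number of arrays limits the precision.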

Additional observations from a re-analysis of the deposited data

Results flagged for a closer look

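The 54 sets of values (9 genes in 6 groups) were checked for a single rat far from the rest of its group. Chance alone marks about 1 in 20 such sets, and 1 was found. Sod3 in WT NM-403 replicate 2 was at 1.86, against 1.42 to 1.59 in the other 5 rats of the group. None of the 18 genotype differences in the responses of the 9 genes passed the test.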

How the results depend on the processing

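The rise of Slc7a11 with Mitsui-7 was called under every alternative run in both genotypes, and that of Srxn1 and Sod2 with NM-403 and of Srxn1 and Sod3 with Mitsui-7 in WT rats likewise. No called change of these genes turned its direction. Slc7a11, Nqo1, Gclm and Txnrd1 have no probe among the authors' values, so their results were not run there. The alternative with the other Slc7a11 probe rests on control arrays where that probe was not above background. In p53het Mitsui-7 rats the members called were 2, but 1 with the array median, with normexp, with the authors' values or with no filter, 4 with slide as a fixed or random block, and 1 to 3 on leaving out single arrays. In p53het NM-403 rats they were 1, but 0 with normexp and with the authors' values, and 3 with array weights. For WT Mitsui-7 against NM-403 they were 2, but 1 with the authors' values or array weights, and 1 to 2 without single arrays. For p53het Mitsui-7 against NM-403 they were 0, but 1 with normexp, the strict filter, the mean of all probes, array weights, slide as a fixed or random block or scan day as a block, and 0 to 1 without single arrays.

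Of the other pathway genes 6 were called in WT NM-403 rats, but 13 with the fixed slide block, 11 with the random one or with scan day as a block, and 3 to 7 without single arrays. In p53het Mitsui-7 rats 20 were called, but 31 with either slide block. In p53het NM-403 rats 2 were called, but 12 with array weights, 7 with either slide block, 5 with scan day as a block, and 1 to 4 without single arrays. The cause of these moves was not tested. Over all genes the calls with slide as a fixed block were 5518 in place of 2832 in p53het Mitsui-7, 960 in place of 373 in p53het NM-403, 5432 in place of 3420 in WT Mitsui-7 and 1893 in place of 784 in WT NM-403 rats. With array weights they were 2451 in p53het NM-403, 5192 in p53het Mitsui-7 and 1441 in WT NM-403 rats. The share of higher calls in p53het NM-403 rats was 67.5% with normexp, against 83.4%. With the replicate block, where numbers do not pair the arrays, the members called were 2, 1, 4 and 3 in p53het Mitsui-7, p53het NM-403, WT Mitsui-7 and WT NM-403 rats, and the other pathway genes 21, 2, 24 and 7. It changed no call of a member. Signal over background limits Gclm, the dimmer Slc7a11 probe and Duox2.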
